A study of Mus musculus with 20 samples.

Results

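Fatty acid synthesis, desaturation and triglyceride storage in mouse liver were followed through 37 listed genes, chosen by symbol as regulators, enzymes, transfer proteins and lipid droplet proteins of this pathway. Of these, 33 had an intact line among the 23993 intact genes of the read count table, and 32 passed the filter on low counts and were tested. Gpam, Agpat2, Cidea and Cideb had lines displaced in the table and were not used, and Mogat1 was too low to test. The libraries came from livers of 20 individual female mice, 5 in each of 4 groups: vehicle diet and sedentary, vehicle diet with voluntary wheel running (VWR), a diet with oral combined contraceptives (OC) and sedentary, and OC diet with VWR. All 4 groups shared the same tissue and library protocol, and the labels used here give no strain, age, hormone composition or dose. Con in the labels is the vehicle diet, and no other treatment, allele or time point separates the groups.

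The liver makes fatty acids from acetyl-CoA, which ATP citrate lyase and acetyl-CoA synthetase supply, acetyl-CoA carboxylases turn into malonyl-CoA and fatty acid synthase elongates. Desaturases then add double bonds, and the glycerol phosphate pathway esterifies fatty acids to triglyceride, which leaves the hepatocyte in lipoproteins or stays in lipid droplets. SREBP-1 (Srebf1) and ChREBP (Mlxipl) are known to switch on synthesis after feeding, while PPAR-gamma (Pparg), better known from fat tissue, raises lipid uptake and droplet genes in fatty liver.

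The promoter sequences of 3 genes that stand out in the results are shown, and no fold change or correlation rests on a sequence. The genes are Pnpla5 and Pnpla3, neighbouring protein-coding genes on chromosome 15 with the lowest values on OC relative to vehicle, and Fasn, which of the pairs compared varied most closely with Srebf1. Each line is the 250 bases before a gene's start in RefSeq (GRCm38.p6), on the gene's own strand, 5′ to 3′. Capitals mark the CCAAT box (CCAAT, also read as ATTGG on the other strand), the E-box CACGTG and the sterol regulatory element TCACNCCAC.
Pnpla5, chr15:84123176-84123425, minus strand: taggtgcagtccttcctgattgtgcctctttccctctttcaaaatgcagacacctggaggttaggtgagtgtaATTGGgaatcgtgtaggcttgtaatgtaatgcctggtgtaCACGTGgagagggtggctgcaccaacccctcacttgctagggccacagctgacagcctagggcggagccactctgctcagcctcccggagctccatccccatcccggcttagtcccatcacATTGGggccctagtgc
Pnpla3, chr15:84167566-84167815, plus strand: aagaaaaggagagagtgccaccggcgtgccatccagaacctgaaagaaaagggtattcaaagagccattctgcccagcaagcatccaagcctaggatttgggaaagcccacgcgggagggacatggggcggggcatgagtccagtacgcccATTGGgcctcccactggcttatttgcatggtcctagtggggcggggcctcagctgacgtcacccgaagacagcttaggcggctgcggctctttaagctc
Fasn, chr11:120824548-120824797, minus strand: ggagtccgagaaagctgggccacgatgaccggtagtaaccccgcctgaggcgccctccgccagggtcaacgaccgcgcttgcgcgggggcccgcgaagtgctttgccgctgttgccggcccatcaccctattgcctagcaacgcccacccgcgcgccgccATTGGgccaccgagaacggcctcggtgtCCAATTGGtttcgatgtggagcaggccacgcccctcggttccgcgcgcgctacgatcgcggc
The Pnpla5 window held an E-box 137 bases before the start and a CCAAT box at 177 and at 16. Pnpla3 had 1 CCAAT box at 99, and Fasn had 3, at 90, 62 and 59, of which the last pair overlapped. Windows were available for 31 of the 37 genes, 42 in all because some genes have several starts, and both strands were searched. CCAAT occurred in 42.9% of the 42 windows and in 33.8% of all 32851 windows of this length. CACGTG occurred in 7.14% against 6.02%, and TCACNCCAC in 2.38% (a Mlxipl window) against 1.05%. The GC box GGGCGG, left in lower case, occurred in 57.1% against 32.7%, at 78 in Pnpla5 and at 125 and 61 in Pnpla3. The DR1 and DR4 half-site pairs (AGGTCA repeated with 1 or 4 bases between) occurred in 0 of the 42 windows, against 0.0335% and 0.0152%. These matches are letters in a window, and no binding was measured.

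Totals of the genes used ran from 10883936 to 16134618 counts per library. Values are CPM, the counts of a library scaled to a common total after TMM, a factor that corrects for composition, and lists of 5 values follow replicates 1 to 5, whose numbers only name the mice. Hepatocyte markers (6 of 10 with an intact line, none at 0 in all libraries) were high in every library, at a summed 139182 to 193942 CPM on vehicle with running, 155471 to 185871 CPM sedentary, and lower on OC at 93917 to 119337 CPM sedentary and 80780 to 119050 CPM with running. Most of this sum was Alb, with means of 136772 and 124713 CPM on vehicle (sedentary, then running) and 80023 and 72265 CPM on OC. Means of 5 of the 6 markers were lower on OC in both activity groups. Besides Alb these were Apoa1 (14647 and 13408 against 10385 and 11362 CPM), Ttr (8460 and 8975 against 6454 and 6722 CPM), Cps1 (4081 and 4435 against 3617 and 3077 CPM) and Fgb. Fgb was nearly level (5376 and 5190 against 5167 and 4918 CPM), and Tat was higher on OC (1867 and 2261 against 3000 and 3587 CPM). In bulk liver, fewer cells of a type and less RNA per cell cannot be told apart, and the part of this marker difference in the results was not tested. Of 8 adipocyte markers 5 had an intact line (Plin1, Lep, Cfd, Retn and Adig, none at 0 in all libraries), and their sum ran from 0.618 to 20.4 CPM in sedentary vehicle, 0.317 to 10.5 CPM in running vehicle, 0.388 to 8.06 CPM in sedentary OC and 0.221 to 8.78 CPM in running OC livers. These ranges overlapped, while the means of all 5 were lower on OC in both activity groups, as for Cfd (6.36 and 3.44 against 2.04 and 2.33 CPM). Of 9 stellate cell and fibroblast markers 7 were intact, 6 of them with lower means on OC in both activity groups, and their sum ran from 515 to 688 CPM in sedentary vehicle, 482 to 610 CPM in running vehicle, 328 to 527 CPM in sedentary OC and 322 to 494 CPM in running OC livers. The 1 intact lymphocyte marker of 5, Cd79a, had means of 2.42 and 1.52 CPM on vehicle and 0.921 and 0.709 CPM on OC. Replicate 2 of the sedentary vehicle group stood apart on the second principal component of log2 CPM, at -53.0 against -11.2 to 17.1 in the others.

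In sedentary mice the OC diet raised 1 of the 32 tested genes, the lipoprotein assembly gene Mttp, and lowered 4: Pparg, the droplet proteins Cidec and Pnpla5, and the fatty acid transporter Cd36. The other 27 did not pass the test (edgeR quasi-likelihood, Benjamini-Hochberg adjusted p under 0.05 over 10207 genes). Across all tested genes 16.3% passed in this comparison, 9.11% higher and 7.20% lower, so the share of these genes, 15.6%, was near the background. Their median log2 fold change was -0.15, against -0.01 for all genes. The lower calls were 7 with DESeq2, 1 with limma voom and 2 with the sedentary groups alone, and library totals gave 3 higher. Without sedentary vehicle replicate 2 the calls were 2 higher and 3 lower. Lower calls were 1 without sedentary OC replicate 1 or 3 and 2 without sedentary OC replicate 2 or 5. Higher calls were 2 without sedentary vehicle replicate 5, sedentary OC replicate 4 or running OC replicate 2.

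In running mice 8 genes fell on OC and 0 rose, against 7.09% of all tested genes higher, 6.06% lower and 13.2% in either direction. The 8 were Pparg, the carboxylase Acacb, the acetate-activating enzyme Acss2, the desaturases Fads1 and Fads2, and the droplet genes Pnpla3, Pnpla5 and Fitm1, which made 25.0% of the genes tested. The 32 genes had a median log2 fold change of -0.37, against 0.01 for all genes, and 24 of 32 values were negative. The lower calls were 10 without sedentary vehicle replicate 2, 3 without running vehicle replicate 3, and 4 without running vehicle replicate 4 or running OC replicate 1 or 3. The 2 OC comparisons used different mice, and Pparg and Pnpla5 were the genes called in both.

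**Figure D1:**
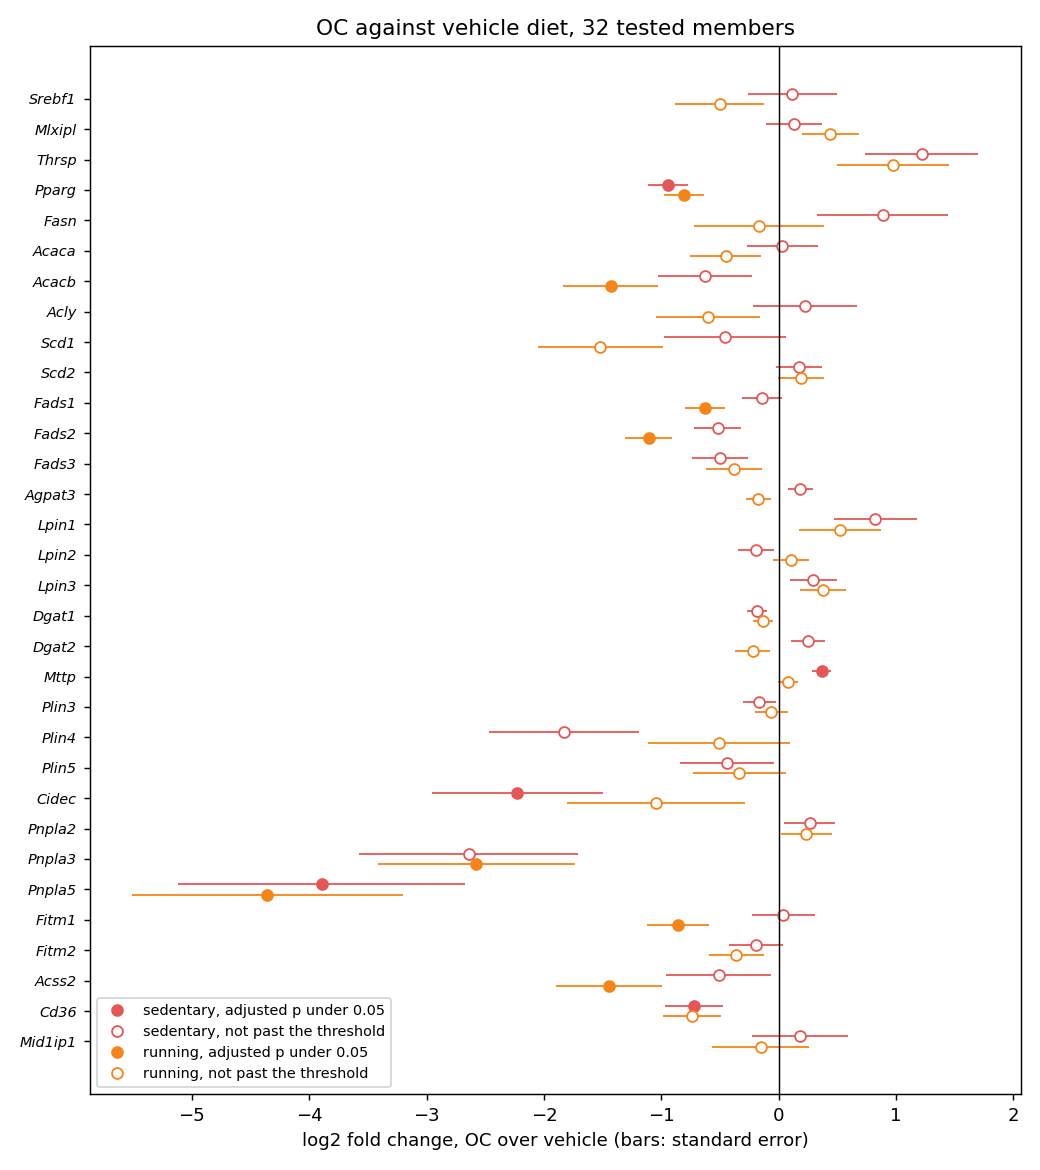
Log2 fold change of OC over vehicle (x axis) for the 32 tested genes (y axis), sedentary mice in red and running mice in orange, with bars for the standard error, worked back from the test, and filled points for adjusted p under 0.05. Pnpla5 and Pnpla3 lie farthest to the left, Thrsp lies to the right in both, and the filled orange points are all to the left of 0.

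Averaged over activity, Thrsp and Mttp rose and 9 genes fell (Pparg, Acacb, Acss2, Fads1, Fads2, Cidec, Pnpla3, Pnpla5 and Cd36), while 22.9% of all genes passed, 11.9% higher and 11.0% lower. Without sedentary vehicle replicate 2, 4 genes were called higher and 11 lower. Scaling by library totals alone moved the median of all genes to 0.10 in sedentary mice, 0.12 in running mice and 0.11 on average, and the share of higher calls among all calls from 55.9% to 82.6%, 53.9% to 80.6% and 51.8% to 81.0%. Under it, the OC diet gave 4 higher calls among these genes on average.

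None of the 32 genes passed the test for running on either diet or averaged over diet, and none passed that for the interaction of diet and activity, in comparisons where 0% of all genes passed. At an unadjusted p under 0.05 there were 0 of these 32 genes for running on vehicle, 1 on OC, 0 averaged and 5 for the interaction, against 1414, 694, 496 and 1802 of all genes. The latter were 13.9%, 6.80%, 4.86% and 17.7% of all tested genes. DESeq2 called 42, 1, 2 and 119 of all genes in these 4 comparisons, with 0 of the 32 among them. A change with OC called in one activity group and missed in the other is therefore not shown to differ between them. The smallest adjusted p of the interaction among these genes was 0.246, shared by Mttp and Fitm1.

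**Figure D2:**
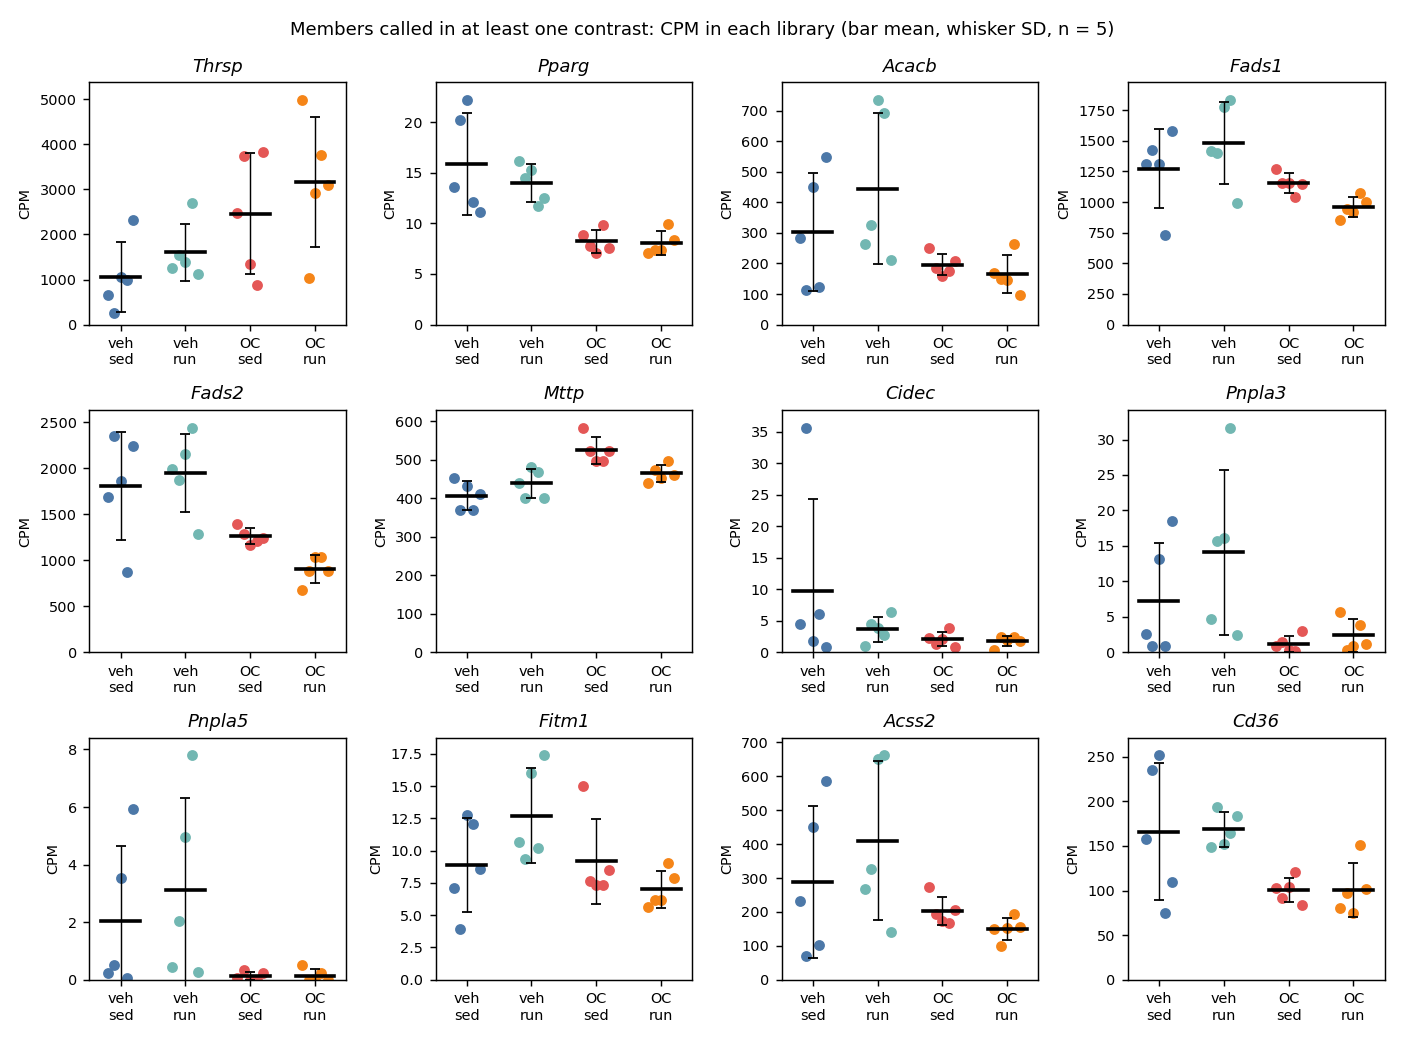
CPM (y axis, from 0) in each of the 20 libraries for the 12 genes called in any comparison, by group (veh, vehicle; sed, sedentary; run, running), with a bar for the mean and whiskers for the SD of 5 mice, cut at 0. Pparg values lie lower in every OC liver than in any vehicle liver, while Pnpla3, Pnpla5, Acacb and Acss2 vehicle values spread widely.

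Among the regulators, Pparg, the nuclear receptor that drives lipid storage genes, was the one that passed in both activity groups. It stood at 13.6, 20.3, 22.2, 12.1 and 11.1 CPM in sedentary vehicle livers and 8.89, 7.74, 7.07, 9.83 and 7.60 CPM in sedentary OC livers. With running the values were 16.2, 14.5, 15.3, 11.7 and 12.5 CPM on vehicle and 7.07, 7.36, 7.38, 9.95 and 8.34 CPM on OC. All 10 OC values lay below all 10 vehicle values, which 2.54% of all tested genes did in either direction over the 2 diets. Pparg (chromosome 6, 115360951 to 115490399, plus strand) fell 1.92-fold in sedentary mice (log2 fold change -0.94, SE 0.17, adjusted p = 0.000868) and 1.75-fold in running mice (log2 fold change -0.81, SE 0.17, adjusted p = 0.00338). These calls held without any 1 of the 20 libraries and under every other setting tried. Adipocyte and stellate cell markers, given above, had lower means on OC too. Lrat, the retinol-esterifying enzyme of stellate cells, stood at mean 44.8 and 39.7 CPM on vehicle and 20.5 and 21.1 CPM on OC (sedentary, then running). The adipocyte marker Plin1 stood at 1.21 and 1.20 against 0.294 and 0.405 CPM. The part of these cells in the Pparg values was not tested.

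Thrsp encodes Spot 14, a small protein that promotes lipogenesis, and is a known target of ChREBP and thyroid hormone. In sedentary mice it stood at 661, 251, 1055, 983 and 2329 CPM on vehicle and 2472, 3749, 1355, 885 and 3834 CPM on OC, and in running mice at 1252, 1549.8, 1394, 2705 and 1125 CPM on vehicle and 4978, 1027, 2927, 3772 and 3091 CPM on OC. The highest values were on OC, but the ranges of the diets overlapped in both activity groups. The rise passed the test only averaged over activity (log2 fold change 1.10, SE 0.34, adjusted p = 0.0230), at 1.22 in sedentary mice (adjusted p = 0.0876) and 0.98 in running mice (adjusted p = 0.186). Thrsp (chromosome 7, 97412938 to 97417730, minus strand) was 2nd in level per kilobase of exon among the 33 genes, at 946 CPM per kb over all libraries.

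Srebf1, Mlxipl and Mid1ip1, the Spot 14 relative that activates acetyl-CoA carboxylase, passed no test. In the order sedentary vehicle, running vehicle, sedentary OC and running OC, Srebf1 stood at 581 ± 165, 801 ± 199.8, 631 ± 367 and 565 ± 289 CPM (mean ± SD, n = 5). Mlxipl stood at 588 ± 201, 589 ± 145, 644 ± 176 and 799 ± 143 CPM in the same order, with a log2 fold change of 0.44 on OC in running mice (SE 0.24). Mid1ip1 stood at 102 ± 30.8, 124 ± 38.1, 115 ± 68.6 and 111 ± 62.7 CPM, and its log2 fold changes on OC were 0.18 and -0.15 in sedentary and running mice. Srebf1 and Mid1ip1 differed most between mice of the OC groups, where Srebf1 ranged from 217 to 1079 CPM sedentary and 226 to 1004 CPM running.

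In the supply and carboxylation of acetyl-CoA, the 2 genes that fell were Acacb, the carboxylase at the mitochondrial surface whose malonyl-CoA restrains fatty acid oxidation, and Acss2, which activates acetate in the cytosol and nucleus. Acacb stood at 263, 325, 734, 692 and 211 CPM in running vehicle livers and 168, 149, 146, 265 and 96.7 CPM in running OC livers. In sedentary mice the values were 284, 113, 449, 123 and 547 CPM on vehicle and 251, 186, 160.3, 175 and 209 CPM on OC. Running vehicle replicates 3 and 4 and sedentary vehicle replicates 3 and 5 were the high livers, and 1 running OC value reached into the vehicle range. Acacb (chromosome 5, 114146535 to 114250761, plus strand) fell by 1.43 on the log2 scale in running mice (SE 0.40, adjusted p = 0.0233) and fell by 1.03 averaged over activity (adjusted p = 0.0114). In sedentary mice the log2 fold change was -0.63 (adjusted p = 0.297). The call in running mice went when running vehicle replicate 3 was left out (adjusted p = 0.0762) or 4 (0.0704) and without running OC replicate 1 (0.0528) or 3 (0.0590).

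Acss2 followed the same livers. It stood at 269, 328, 651, 661 and 142 CPM in running vehicle livers and 149, 101, 154, 193 and 156 CPM in running OC livers. Sedentary values were 233, 69.3, 452, 102 and 585 CPM on vehicle and 273, 193, 173, 169 and 204 CPM on OC. The OC values sat close together within the lower part of the vehicle range, which held the highest and the lowest value of all 20 livers. Acss2 (chromosome 2, 155517948 to 155585724, plus strand) fell by 1.44 in running mice (SE 0.46, adjusted p = 0.0394) and fell by 0.98 averaged (adjusted p = 0.0303). In sedentary mice the value was -0.51 (adjusted p = 0.464). The running call went when running vehicle replicate 3 or 4 was left out (adjusted p = 0.110 and 0.115), when each of the 5 running OC libraries was (0.0506 to 0.0854) and with limma voom (0.0821). The averaged call was lost without sedentary vehicle replicate 3 or 5, running vehicle replicate 3 or 4 or running OC replicate 2 (adjusted p = 0.05002 to 0.0741) and with limma voom (0.148).

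Acly, which splits citrate into acetyl-CoA, Acaca, the cytosolic carboxylase, and Fasn, which builds palmitate, passed no test. Fasn stood at 603, 412, 1264, 569.7 and 1863 CPM in sedentary vehicle livers and 2944, 2298, 529, 371 and 2566 CPM in sedentary OC livers. With running it stood at 1488, 1538, 1890.5, 2874 and 559 CPM on vehicle and 2604, 388, 1013, 1782 and 1644 CPM on OC. Each diet held both high and low livers, with sedentary OC replicates 3 and 4 and running OC replicate 2 lowest on OC. Its log2 fold change on OC was 0.89 in sedentary mice (SE 0.56, adjusted p = 0.297) and -0.17 in running mice (SE 0.56, adjusted p = 0.874). Acaca was at 0.03 and -0.45 and Acly at 0.23 and -0.60 in sedentary and running mice, with group means of 175 to 239 CPM for Acaca and 567 to 884 CPM for Acly.

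Among the desaturases, Fads2 and Fads1, the delta-6 and delta-5 desaturases that make long polyunsaturated fatty acids, fell on OC in running mice. With Fads3 they are neighbouring protein-coding genes on chromosome 19. Fads2 stood at 1985, 1867, 2151, 2436 and 1288 CPM in running vehicle livers and 671, 883, 1038, 1039 and 881 CPM in running OC livers. In sedentary mice it stood at 1686, 2350.0, 1863, 876 and 2236 CPM on vehicle and 1396, 1279, 1166, 1205 and 1244 CPM on OC. The running groups did not overlap, which was so with the OC group lower for 4.95% of all tested genes, while in sedentary mice vehicle replicate 4 lay below every OC liver. Fads2 (chromosome 19, 10062765 to 10101746, minus strand) fell 2.16-fold in running mice (log2 fold change -1.11, SE 0.20, adjusted p = 0.000911), a call that held without any 1 library and under every other setting. In sedentary mice the log2 fold change was -0.52 (SE 0.20, adjusted p = 0.0816), and the interaction gave -0.59 (adjusted p = 0.283).

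Fads1 stood at 1414, 1401, 1772, 1829.9 and 995 CPM in running vehicle livers and 853, 946, 920.0, 1071 and 1004 CPM in running OC livers. Sedentary values were 1308, 1427, 1313, 729 and 1576 CPM on vehicle and 1267, 1156, 1155, 1041 and 1144 CPM on OC. The OC livers of each activity group spanned a narrow range, and the lowest vehicle liver of each group lay within or below it. Fads1 (chromosome 19, 10182888 to 10196877, plus strand) fell by 0.63 in running mice (SE 0.17, adjusted p = 0.0169) and fell by 0.38 averaged (adjusted p = 0.0224), at -0.14 in sedentary mice (adjusted p = 0.603). The running call went when running vehicle replicate 3 was left out (adjusted p = 0.0539) or 4 (0.0569) or running OC replicate 1 (0.0503), and the averaged call with library totals as the only scaling (0.0774).

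Scd1, the delta-9 desaturase that makes oleate, had the highest level of the 33 genes per kilobase, at 1964 CPM per kb, but passed no test. It stood at 4073, 22988, 24796, 21867 and 6624 CPM in running vehicle livers and 6401, 4556, 3157, 8781 and 5147 CPM in running OC livers. Sedentary values were 6402, 6496, 15712, 1396 and 18474 CPM on vehicle and 11525, 7626, 4968, 4559 and 6651 CPM on OC. The vehicle groups held both the lowest and the highest livers, and the log2 fold change was -1.52 in running mice (SE 0.53, adjusted p = 0.0635) and -0.46 in sedentary mice (SE 0.52, adjusted p = 0.587). Scd2 stood at 9.22 ± 4.12, 8.74 ± 1.32, 10.4 ± 1.27 and 9.96 ± 1.07 CPM and Fads3 at 4.55 ± 1.94, 3.70 ± 0.804, 3.21 ± 0.458 and 2.85 ± 0.696 CPM in the order of groups above, with no call. Scd1, Scd2 and Scd3 are close paralogs, and how reads shared between them were counted is not given in the sources used here, so their split is uncertain.

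In glycerolipid assembly no enzyme was called. These were the acyltransferase Agpat3, the phosphatidate phosphatases Lpin1, Lpin2 and Lpin3, and the last acyltransferases Dgat1 and Dgat2. Lpin1 had the largest log2 fold change of them, 0.82 in sedentary mice (SE 0.35, adjusted p = 0.116) and 0.52 in running mice (adjusted p = 0.348), with means of 417 ± 169, 572 ± 219.7, 737 ± 238 and 822 ± 563 CPM in the order of groups above. Dgat1 stood at 24.7 ± 1.17, 23.7 ± 1.55, 21.7 ± 1.02 and 21.7 ± 2.71 CPM and differed by -0.16 averaged over activity (adjusted p = 0.0585). Dgat2 stood at 749 ± 198, 902 ± 98.9, 891 ± 75.2 and 774 ± 64.7 CPM, with 0.25 and -0.22 on OC in sedentary and running mice. Agpat3 (277 ± 28.7, 307 ± 37.7, 315 ± 25.6 and 272 ± 40.0 CPM) and Lpin2 (635 ± 43.2, 525 ± 64.5, 555 ± 94.7 and 565 ± 163 CPM) moved by less than 0.2 on the log2 scale in either OC comparison, and Lpin3 (4.82 ± 1.36, 4.79 ± 0.723, 5.91 ± 1.18 and 6.21 ± 1.46 CPM) by 0.29 and 0.38. Mogat1, a monoacylglycerol acyltransferase, was not tested, at 0.587 ± 0.262, 0.851 ± 0.413, 0.246 ± 0.131 and 0.238 ± 0.230 CPM.

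Mttp encodes the microsomal transfer protein that loads triglyceride onto apolipoprotein B. In sedentary mice it stood at 454, 368, 432, 369 and 410.0 CPM on vehicle and 583, 523, 497, 496 and 522 CPM on OC, and in running mice at 441, 401, 483, 468 and 401 CPM on vehicle and 440.2, 474, 453, 497 and 461 CPM on OC. Every sedentary OC liver was above every sedentary vehicle liver, a full separation in either direction that 11.0% of all tested genes showed, while the running groups overlapped. Mttp (chromosome 3, 138089854 to 138144968, minus strand) rose 1.29-fold in sedentary mice (log2 fold change 0.37, SE 0.08, adjusted p = 0.00607) and by 0.22 averaged (adjusted p = 0.00900), and both calls held without any 1 library and under every other setting. In running mice the log2 fold change was 0.08 (SE 0.08, adjusted p = 0.551), and the interaction was -0.28 (SE 0.12, adjusted p = 0.246).

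Cd36, the scavenger receptor that takes up long-chain fatty acids and is also found on macrophages and endothelium, stood at 157, 235, 251, 75.4 and 109 CPM in sedentary vehicle livers and 103, 91.8, 104, 120.4 and 83.8 CPM in sedentary OC livers. Running values were 149, 193, 153, 164 and 184 CPM on vehicle and 80.3, 97.3, 74.8, 151 and 101 CPM on OC. The sedentary vehicle group held livers on both sides of the OC range, and in running mice 1 OC liver reached into the vehicle range. Cd36 (chromosome 5, 17781690 to 17888801, minus strand) fell by 0.73 averaged over activity (SE 0.17, adjusted p = 0.00406), a call kept without any 1 library. In sedentary mice it fell by 0.72 (adjusted p = 0.0492) and in running mice, just past the other side of the threshold, the value was -0.74 (adjusted p = 0.05004). The sedentary call was lost without 16 of the 20 libraries taken singly, all but sedentary vehicle replicates 4 and 5, sedentary OC replicate 4 and running OC replicate 4, with adjusted p from 0.00725 to 0.147 over the 20 fits and the highest without sedentary vehicle replicate 3. It was also lost with library totals, no filter, limma voom or only the groups compared (adjusted p = 0.0586 to 0.105). Summed macrophage markers (7 of 8 intact) ran from 317 to 439 CPM in sedentary vehicle, 255 to 380 CPM in running vehicle, 353 to 467 CPM in sedentary OC and 305 to 424 CPM in running OC livers. Means of 5 of the 7 were higher on OC in both activity groups and 0 were lower in both. Summed endothelial markers (6 of 7 intact) ran from 153 to 276 CPM over all 4 groups. Means of 5 of these 6 were lower on OC in both activity groups and 0 were higher in both. None of these markers was at 0 in all libraries, and their part in the Cd36 values was not tested.

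Among droplet proteins Cidec, which fuses small droplets into larger ones, fell in sedentary mice, a result that rested on 1 liver. It stood at 4.47, 35.6, 1.84, 6.06 and 0.795 CPM on vehicle and 2.26, 1.24, 2.15, 3.80 and 0.853 CPM on OC in sedentary mice, and at 0.950, 4.45, 3.81, 2.70 and 6.36 CPM on vehicle and 0.294, 2.38, 1.94, 2.34 and 1.83 CPM on OC in running mice. Replicate 2 of the sedentary vehicle group, the library that stood apart, had the highest value, and the groups overlapped. Cidec (chromosome 6, 113424634 to 113435760, minus strand) fell by 2.23 in sedentary mice (SE 0.73, adjusted p = 0.0412) and fell by 1.64 averaged (adjusted p = 0.0282). Without that library the values were -0.68 (adjusted p = 0.428) and -0.86 (adjusted p = 0.0995). The sedentary call was also lost without sedentary OC replicate 1, 2, 3 or 5 (adjusted p = 0.0687 to 0.0920), and the averaged call without running vehicle replicate 5 or sedentary OC replicate 2 or 5 (0.0508 to 0.0584). Limma voom called neither (0.321 and 0.176), and a fit of the sedentary groups alone did not call the first (0.0986). The summed adipocyte markers were 9.28, 5.74, 4.07, 20.4 and 0.618 CPM in sedentary vehicle replicates 1 to 5. Their part in the Cidec values was not tested.

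Plin4, a perilipin that coats droplets, stood at 38.8, 47.6, 14.3, 38.4 and 14.0 CPM in sedentary vehicle livers and 4.52, 6.50, 13.9, 10.7 and 7.52 CPM in sedentary OC livers. The groups did not overlap, as with OC lower in 4.01% of all tested genes, yet the difference of -1.83 (SE 0.64, adjusted p = 0.0541) missed the threshold. In running mice Plin4 ranged from 8.30 to 48.7 CPM on vehicle and 5.36 to 65.2 CPM on OC, and its log2 fold change was -0.51 (adjusted p = 0.621). Plin5, the perilipin of oxidative tissues, and Plin3, a widely expressed one, differed by -0.39 and -0.11 averaged over activity (adjusted p = 0.350 and 0.464). Plin5 stood at 83.3 ± 41.4, 86.2 ± 45.0, 61.3 ± 12.7 and 68.4 ± 52.0 CPM and Plin3 at 62.1 ± 13.4, 63.9 ± 13.7, 55.5 ± 5.19 and 61.3 ± 6.97 CPM in the order of groups above.

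Fitm1, a membrane protein that binds triglyceride at the start of droplet formation and is known mainly from muscle, was low in liver and fell in running mice. It stood at 10.6, 9.32, 16.0, 10.2 and 17.4 CPM in running vehicle livers and 5.67, 6.17, 6.19, 9.07 and 7.91 CPM in running OC livers. Sedentary values were 7.12, 3.91, 12.7, 12.0 and 8.57 CPM on vehicle and 15.0, 7.67, 7.37, 7.32 and 8.53 CPM on OC. The running groups did not overlap, while sedentary OC replicate 1 was the highest sedentary liver. Fitm1 (chromosome 14, 55575617 to 55576954, plus strand) fell by 0.86 in running mice (SE 0.27, adjusted p = 0.0375) and was at 0.04 in sedentary mice (adjusted p = 0.939), with an interaction of -0.90 (adjusted p = 0.246). This call went when running vehicle replicate 3 or 5 or running OC replicate 1, 2 or 3 was left out (adjusted p = 0.0602 to 0.101) and with library totals as the only scaling (0.0518). Of the skeletal muscle markers 1 of 4 was intact, Mb, at 0 to 0.384 CPM in sedentary vehicle, 0 to 28.0 CPM in running vehicle, 0 to 34.3 CPM in sedentary OC and 0 to 8.95 CPM in running OC livers, and its part in the Fitm1 values was not tested. Its widely expressed relative Fitm2 stood at 84.7 ± 25.2, 74.0 ± 14.7, 74.1 ± 21.4 and 57.6 ± 23.0 CPM in the order of groups above and was not called.

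Among the 32 genes the largest differences on OC were in 2 neighbouring patatin-like phospholipase genes, Pnpla5 (chromosome 15, 84112356 to 84123175, minus strand) and Pnpla3 (chromosome 15, 84167837 to 84187236, plus strand), the second of which encodes adiponutrin, a droplet protein induced by feeding. Pnpla3 stood at 4.62, 15.8, 16.1, 31.6 and 2.36 CPM in running vehicle livers and 5.67, 0.281, 0.820, 3.88 and 1.22 CPM in running OC livers. Sedentary values were 2.57, 0.869, 13.1, 0.876 and 18.5 CPM on vehicle and 0.802, 1.50, 0.307, 0.136 and 3.03 CPM on OC. The high vehicle livers were sedentary replicates 3 and 5 and running replicates 2, 3 and 4, while the other vehicle livers lay within or near the OC range. Averaged over activity Pnpla3 fell 6.10-fold (log2 fold change -2.61, SE 0.63, adjusted p = 0.00446), a call kept under every setting. In running mice it fell by 2.57 (SE 0.84, adjusted p = 0.0464) and in sedentary mice the value was -2.64 (SE 0.94, adjusted p = 0.0579). The running call went when running vehicle replicate 2, 3 or 4, sedentary OC replicate 1 or 2, or running OC replicate 2, 3, 4 or 5 was left out, with the highest adjusted p, 0.146, without running vehicle replicate 4. Without running OC replicate 1 the value was -3.18 (adjusted p = 0.0421), and limma voom gave an adjusted p of 0.0779.

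Pnpla5, a related lipase of droplets, was counted in few reads. Its raw counts were 3, 6, 46, 1 and 67 in sedentary vehicle, 7, 29, 74, 98 and 4 in running vehicle, 1, 5, 0, 0 and 3 in sedentary OC and 7, 0, 0, 3 and 0 in running OC livers. The vehicle livers high in Pnpla3 were the ones high in Pnpla5, and 5 of 10 OC libraries held 0 counts, which allows up to 3 in each by counting error alone. Pnpla5 passed the filter on low counts only through those high vehicle livers, and no OC library reached the level the filter asks for. A higher value on vehicle was thus part of how the gene came to be tested, and fits of only the groups compared left it out. In CPM the group means were 2.06 ± 2.58, 3.10 ± 3.22, 0.126 ± 0.146 and 0.147 ± 0.227 in the order of groups above. Pnpla5 fell by 3.89 in sedentary mice (SE 1.22, adjusted p = 0.0341), fell by 4.36 in running mice (SE 1.15, adjusted p = 0.0164) and fell by 4.13 averaged (adjusted p = 0.00111). The averaged call was kept under every setting. The sedentary call went when sedentary vehicle replicate 3 or 5 was left out (adjusted p = 0.0702 and 0.123), also without sedentary OC replicate 1, 3, 4 or 5 (0.0565 to 0.0775) and with limma voom (0.199). The running call went when running vehicle replicate 4 was left out (adjusted p = 0.0545) and with limma voom (0.0542). Such few counts set the size loosely, at a log2 value of -3.02 without sedentary vehicle replicate 5, -4.62 without sedentary OC replicate 2, -3.69 without running vehicle replicate 4 and -5.65 without running OC replicate 1. Averaged, it was -4.77 without running OC replicate 1 (adjusted p = 0.00108). Pnpla2, the main triglyceride lipase of droplets, passed no test, at 103 ± 22.6, 93.5 ± 12.5, 124 ± 34.6 and 110.2 ± 43.5 CPM.

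**Figure D3:**
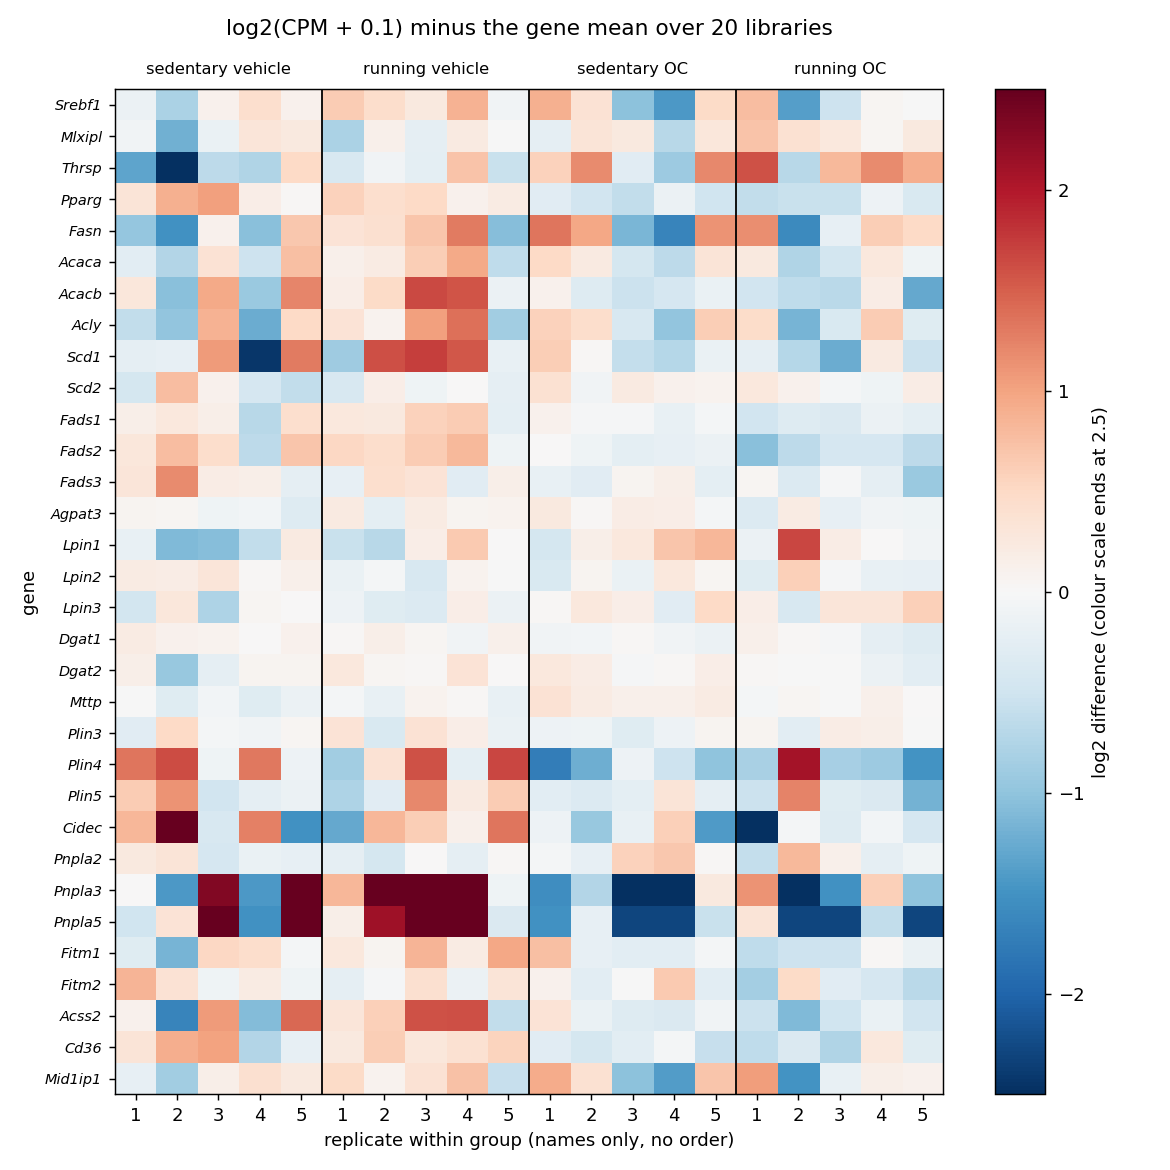
Log2(CPM + 0.1) minus the gene's mean over the 20 libraries, for the 32 tested genes (rows) in each library (columns, by group), red above and blue below the mean, with colours ending at 2.5. Pnpla3, Pnpla5, Acacb, Acss2 and Scd1 are red in the same vehicle livers, sedentary replicates 3 and 5 and running replicates 3 and 4, and Srebf1, Fasn and Mid1ip1 are blue in sedentary OC replicates 3 and 4 and running OC replicate 2.

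Livers of 1 group differed more in these genes than in most. The SD of log2 CPM within groups lay above the median of all tested genes for 29 of the 32 and above the 90th percentile for 15, with a median of 0.457 against 0.228 for all genes. Pnpla3 was at percentile 99.9, Fasn at 99.6 and Scd1 at 99.4. These values include counting error, most for Pnpla3, Pnpla5 and Cidec with their low counts. The spread differed between the diets in both directions, and no difference was tested. Acss2 had an SD of 1.15 on vehicle and 0.31 on OC, Scd1 of 1.35 on vehicle and 0.54 on OC, Acacb of 0.94 on vehicle and 0.41 on OC, Fads1 of 0.40 on vehicle and 0.11 on OC and Fads2 of 0.47 on vehicle and 0.20 on OC. Srebf1 went the other way, at 0.42 on vehicle and 0.91 on OC, as did Mid1ip1 at 0.50 on vehicle and 0.99 on OC and Fasn at 0.88 on vehicle and 1.25 on OC. The SD was larger on vehicle for 23 of 32 genes and for 55.9% of all tested genes, and without sedentary vehicle replicate 2 for 18 of 32 and 46.4%. Without that library the vehicle SD was 1.02 for Acss2, 1.44 for Scd1 and 0.32 for Srebf1.

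**Figure D4:**
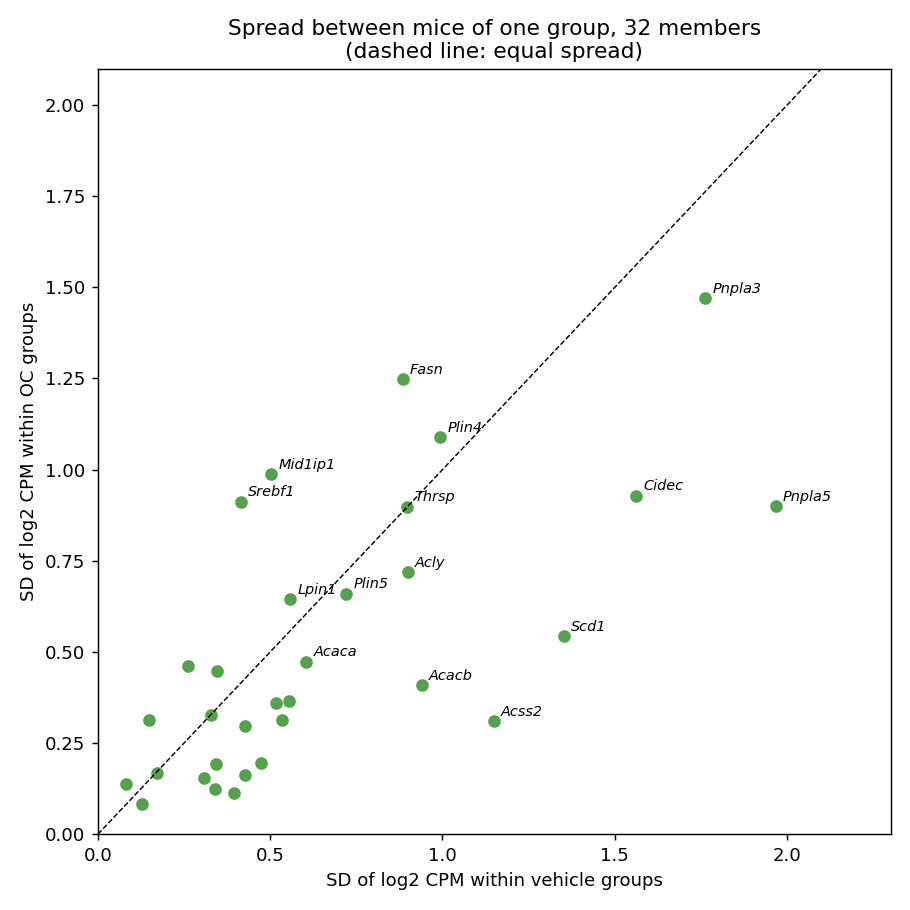
SD of log2 CPM between mice of a group, pooled over the vehicle groups (x axis) and over the OC groups (y axis), 1 point per tested gene, with a dashed line of equal spread. Scd1, Acss2, Acacb and Pnpla5 lie below the line, and Srebf1, Mid1ip1 and Fasn above it.

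Pairs of genes were compared liver by liver within each diet, over 10 libraries, in 20 relations of 10 pairs (permutation p from 100000 resamples, adjusted over the 20). Some pairs join a regulator and a known target, while others, such as Fads1 and Fads2 or Acaca and Acacb, are related enzymes. Srebf1 and Fasn rose and fell together on OC (Pearson r = 0.99, permutation p = 1e-05, adjusted p = 0.0002, Spearman rho = 1.00, permutation p = 1e-05, adjusted p = 0.0002, the smallest p these resamples can give). Without the 2 libraries farthest from the median of Srebf1, r was 0.98. On vehicle the same pair gave Pearson r = 0.74, permutation p = 0.0115, adjusted p = 0.0221 (Spearman rho = 0.66, permutation p = 0.0439, adjusted p = 0.0798), but only 0.41 without 2 libraries. Leaving out the extremes of the first gene narrows its range, which can lower r by itself. A lower r therefore cannot show that a relation rested on those libraries. Srebf1 and Acly gave r of 0.92 on OC (adjusted p = 0.0011) and 0.56 on vehicle (adjusted p = 0.106), with rho of 0.83 and 0.48. Srebf1 and Scd1 gave 0.71 on OC (adjusted p = 0.0343, rho 0.79) and 0.13 on vehicle (adjusted p = 0.721, rho 0.21). These permutation tests were run within a diet, and the difference between the diets was not tested. They shuffled all 10 libraries of a diet without regard to activity, so a difference between the activity groups can add to r.

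**Figure D5:**
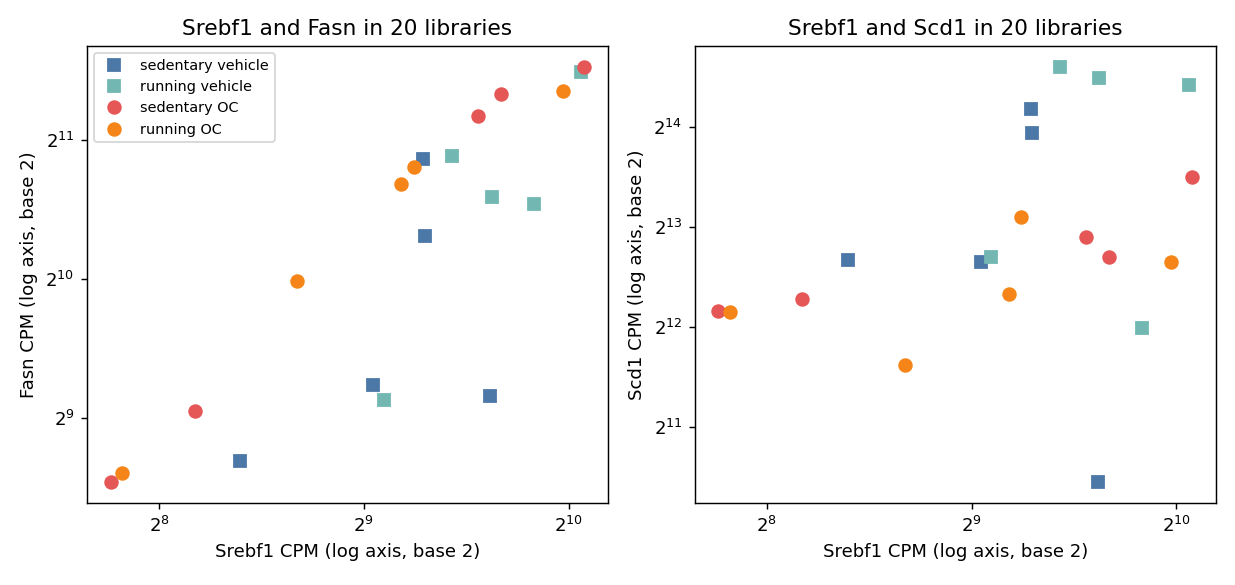
Fasn (left) and Scd1 (right) against Srebf1, all in CPM on log axes of base 2, 1 point per library, squares for vehicle and circles for OC livers. The OC circles of the left panel follow 1 line, with r of 0.99, while vehicle squares scatter, and Scd1 shows no such line on vehicle.

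The other 7 pairs behaved differently from each other. Fads1 and Fads2 gave r of 0.96 on vehicle and 0.89 on OC (permutation test, adjusted p = 0.00085 and 0.00154; rho 0.95 and 0.89), and 0.76 and 0.75 without 2 libraries. In the 5 sedentary and the 5 running livers taken apart, their r was 0.98 and 0.98 on vehicle and 0.74 and 0.70 on OC. Thrsp and Fasn gave 0.84 and 0.91 (permutation test, adjusted p = 0.0011 and 0.00332; rho 0.88 and 0.73), and 0.75 and 0.76 without 2. Mid1ip1 and Acaca, an activator and its enzyme, gave 0.75 and 0.93 (permutation test, adjusted p = 0.0221 and 0.000733; rho 0.64 and 0.89), the first 0.46 and the second 0.86 without 2. Acaca and Acacb gave 0.94 on vehicle (adjusted p = 0.000733, rho 0.94, r = 0.93 without 2 libraries) and 0.55 on OC (permutation test, adjusted p = 0.113, rho 0.71). Mlxipl and Thrsp gave 0.72 and 0.55 (permutation test, adjusted p = 0.0364 and 0.106; rho 0.42 and 0.48), the first 0.48 without 2 libraries. Pparg and Cd36 gave 0.71 and 0.81 (permutation test, adjusted p = 0.0343 and 0.00796; rho 0.59 and 0.56, adjusted p of rho 0.125 and 0.139) but only 0.41 and 0.45 without 2. On vehicle its r was 0.90 in the 5 sedentary and -0.44 in the 5 running livers, and on OC 0.65 and 0.93. Pparg and Cidec gave 0.27 and 0.57 (permutation test, adjusted p = 0.471 and 0.0965; rho 0.10 and 0.42), on vehicle 0.41 in the 5 sedentary and -0.50 in the 5 running livers. Besides these, Srebf1 and Scd1 on vehicle had opposite signs in the activity groups, -0.23 sedentary and 0.17 running, and the other 17 relations were positive in both. Points of a relation share library depth and scaling.

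Other genes of the pathway were read in 3 lists, against 11.9% of all tested genes higher and 11.0% lower on OC averaged over activity. Of 22 genes of fatty acid activation and elongation 8 were tested, and averaged over activity 2 rose and 1 fell on OC (median log2 fold change 0.09, against 0.00 for all genes). Hacd2, an elongation dehydratase, rose, with means of 76.6 ± 8.68 CPM on vehicle and 118 ± 17.5 CPM on OC (mean ± SD, 10 libraries per diet; log2 difference 0.62 with an SE of 0.08, adjusted p = 9.11e-06), and Scd3 rose, with means of 0.116 ± 0.148 CPM on vehicle and 1.90 ± 1.61 CPM on OC (log2 difference 4.14 with an SE of 0.61, adjusted p = 4.12e-05), both kept without any 1 library. Scd3 lay near 0 on vehicle, at means of 0.0481 CPM sedentary and 0.184 CPM running, and passed the filter only through OC libraries. Such few counts set its size loosely, and its reads may be shared with Scd1 and Scd2, as said above. Hacd3, a second dehydratase, fell, with means of 248 ± 33.9 CPM on vehicle and 213 ± 25.7 CPM on OC (log2 difference -0.22 with an SE of 0.08, adjusted p = 0.0411), a call lost without 11 of the 20 libraries taken singly (all but sedentary vehicle replicate 3, running vehicle replicates 1 to 4, sedentary OC replicates 1 and 4 and running OC replicates 3 and 4), with adjusted p of 0.0196 to 0.0811 over the 20 fits, and lost with library totals (0.317) or no filter (0.0612). Of 20 regulators 12 were tested, with 3 higher and 1 lower (median -0.03). Xbp1, a factor of the unfolded protein response, rose, with means of 169.8 ± 19.8 CPM on vehicle and 231 ± 13.4 CPM on OC (log2 difference 0.45 with an SE of 0.07, adjusted p = 4.38e-05), and Usf2, an E-box factor, fell, with means of 95.0 ± 11.2 CPM on vehicle and 76.4 ± 4.23 CPM on OC (log2 difference -0.32 with an SE of 0.07, adjusted p = 0.00161), both kept without any 1 library. Each also passed in sedentary and in running mice (adjusted p = 0.00135 and 0.00691 for Xbp1, 0.0348 and 0.0255 for Usf2). These 2 Usf2 calls were lost without 6 and 4 of the 20 libraries taken singly, and both with library totals. Creb3l3, a liver factor activated in fasting, rose (log2 difference 0.25 with an SE of 0.08, adjusted p = 0.0361). That call was lost without 13 of the 20, all but sedentary vehicle replicates 1, 2 and 4, running vehicle replicate 5, sedentary OC replicate 5 and running OC replicates 1 and 4 (highest adjusted p = 0.0829, without sedentary OC replicate 1). Scap, the escort of SREBPs, fell in running mice, with means of 169.7 ± 30.3 CPM on vehicle and 126 ± 5.83 CPM on OC (log2 difference -0.43 with an SE of 0.10, adjusted p = 0.00944) and was called neither in sedentary mice (adjusted p = 0.366) nor averaged (adjusted p = 0.170).

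Of 41 other glycerolipid and droplet genes 25 were tested, and averaged over activity 8 fell and 3 rose (median -0.21), against 11.0% of all tested genes lower and 11.9% higher. The falls included G0s2, an inhibitor of the lipase encoded by Pnpla2, with means of 281 ± 72.4 CPM on vehicle and 91.9 ± 50.7 CPM on OC (log2 difference -1.62 with an SE of 0.25, adjusted p = 7.75e-05), and Hsd17b13, a hepatocyte droplet enzyme, with means of 679 ± 196 CPM on vehicle and 354 ± 51.3 CPM on OC (log2 difference -0.93 with an SE of 0.11, adjusted p = 4.22e-06). Plin2, the main droplet coat of hepatocytes, named after its values were seen, fell, with means of 484 ± 199.7 CPM on vehicle and 263 ± 60.5 CPM on OC (log2 difference -0.88 with an SE of 0.17, adjusted p = 0.000864). Bscl2, the seipin of droplet formation, rose, with means of 41.1 ± 5.88 CPM on vehicle and 52.7 ± 3.57 CPM on OC (log2 difference 0.37 with an SE of 0.06, adjusted p = 0.000138), and Abhd5, the activator of that lipase, rose, with means of 34.1 ± 3.98 CPM on vehicle and 42.0 ± 4.80 CPM on OC (log2 difference 0.30 with an SE of 0.07, adjusted p = 0.00482). All 5 averaged calls held without any 1 library. In sedentary and running mice separately, 5 and 7 of the 25 fell, against 7.20% and 6.06% of all tested genes, and 1 rose in each, against 9.11% and 7.09%. Plin1, the droplet coat of adipocytes, named after its values were seen, fell averaged (log2 difference -1.79 with an SE of 0.64, adjusted p = 0.0480). That call was lost without 14 of the 20 libraries taken singly, all but sedentary vehicle replicates 2 and 5, running vehicle replicates 1 and 3, sedentary OC replicate 3 and running OC replicate 4, with adjusted p of 0.0196 to 0.102 over the 20 fits. It was also lost with library totals, no filter, DESeq2 and limma voom, up to an adjusted p of 0.273.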

How the data were processed

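RNA of 20 livers was sequenced, 5 per group, from stranded paired-end libraries, per the labels' protocols. The submitters' processing notes name STAR, the build mm10, R 4.05 and limma. The counting program, annotation and strand setting are not given in the sources used here, so overlapping and antisense genes and near-identical copies may be miscounted. The values the authors deposited are expected counts without scaling, as far as their range shows, of which 2 genes, not used, were not whole, while counts had been assumed when the tests were planned. All values used were whole, and rounding changed none. Of 35504 genes 11511 (32.42%) had displaced or doubtful lines and were left out.

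The 32 tested genes were fitted with the rest in edgeR 4.0.16 (R 4.3.3): filterByExpr, which kept 10207 genes with 99.95% of the counts, TMM scaling, 1 mean per group and a quasi-likelihood test for 7 contrasts (common biological coefficient of variation 0.178). Benjamini-Hochberg adjustment ran over all 10207 genes, and an adjusted p under 0.05 made a call. Unless another tool is named, adjusted p, SE, log2 fold changes and folds of genes come from this fit. The SE was worked back from the test, as the size of the log2 fold change over the square root of F. It is therefore approximate, most for genes with few counts. Replicates are separate mice. Log2 CPM for spread and correlations used a prior count of 2. At 10883936 to 16134618 counts a library, values of a few CPM rest on few counts, and counting intervals cover counting error only.

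Alternatives were DESeq2 1.42.0, limma 3.58.1 voom, DESeq2 size factors, library totals, no filter, only the groups compared, and leaving out each library. The spread without sedentary vehicle replicate 2 was added after seeing the data. The steps were tested on simulated data. Genes called in any contrast are given by library and the others by group, and up to 2 called genes per direction are named from each list of other pathway genes. The genes and lists were chosen with earlier results of these data known. Coordinates are from GENCODE vM21 (GRCm38, which mm10 names), and promoter windows from RefSeq (GRCm38.p6), of which the 250 bases before each start were used.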

Additional observations from a re-analysis of the deposited data

Results flagged for a closer look

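In 128 sets of 5 livers (32 genes in 4 groups), 10 held a liver whose gap to the nearest other exceeded 0.71 of the group's range, where chance gives about 1 in 20. Running OC replicate 2 was set apart in 4 of them. It had the highest Lpin1 of its group, at 1824 CPM, the highest Lpin2, at 849.6 CPM, the highest Plin4, at 65.2 CPM, and the highest Plin5, at 159.8 CPM. The same liver had the lowest Fasn and Srebf1 of its group, 388 and 226 CPM. Sedentary OC replicate 4, the liver lowest in Fasn of all 20, had the highest Plin5 of its group, at 83.8 CPM.

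Sedentary vehicle replicate 2, which stood apart over all genes, had the highest Cidec, at 35.6 CPM, and the highest Fads3, at 7.91 CPM. Running OC replicate 1 had the lowest Cidec, at 0.294 CPM. Running vehicle replicate 4 had the highest Thrsp of its group, at 2705 CPM, and sedentary OC replicate 1 the highest Fitm1, at 15.0 CPM.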

How the results depend on the processing

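Over 53 called values of single genes, of these genes and the other pathway genes named, 1351 alternative values were computed. Of these 1200 kept their direction and their side of the threshold, 151 kept the direction only and 0 reversed. For OC in sedentary mice, library totals gave 3 genes of the list higher, and 7, 1 and 2 were lower with DESeq2, limma voom and the 2 groups alone. Averaged over activity, library totals gave 4 higher. DESeq2 called 42 genes for running on vehicle, 1 on OC, 2 averaged and 119 for the interaction, where edgeR called 0. The correlation of Mlxipl with Thrsp on vehicle was 0.67 (permutation test, adjusted p = 0.0548) with library totals. The cause of these shifts was not tested. Pnpla5 gave no value with only the groups compared, since it fell under the filter there. Scd3, too, had values under 5 other settings in sedentary and in running mice, where most genes had 6.

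Leaving out 1 library at a time, OC in sedentary mice gave 1 to 2 higher and 1 to 6 lower calls in the list and 998 to 1794 over all genes. In running mice the ranges were 3 to 10 lower and 817 to 1679 over all genes, the latter 817 without running OC replicate 1 and 835 without replicate 3. Averaged, they were 2 to 4, 8 to 13 and 2043 to 2616. Over all genes, running on OC and averaged gave 0 to 1 and the interaction 0 to 2. No paired analysis was possible because the replicate numbers only follow the order of the samples and the labels give none. Depth limits mostly Pnpla5, Pnpla3 and Cidec and, among the other pathway genes named, Scd3, with few counts per library.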
